A study of Homo sapiens with 6 samples.

Results

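The high mobility group (HMG) genes are the 10 genes HMGB1, HMGB2, HMGB3, HMGA1, HMGA2, HMGN1, HMGN2, HMGN3, HMGN4 and HMGN5. They were taken by gene symbol from a table of 34738 genes, and all 10 were among the 11867 genes tested. RNA sequencing compared human thyroid cancer cells transfected with a small interfering RNA against GDF15 (siGDF15, 3 libraries) with control cells (NC, 3 libraries). GDF15 encodes a secreted stress cytokine of the TGF-beta superfamily. Each of the 6 libraries carries KHM-5M as its cell line label and either control or GDF15 as its genotype label, while a legend of the study names TPC-1. The study's methods call NC negative control cells and list a negative control siRNA beside the GDF15 siRNA, while the series text calls NC a blank control, so the sources differ on whether NC was transfected. If it was not, an effect of transfection cannot be told apart from an effect of the GDF15 siRNA. The transfection was transient and used a lipid carrier. The methods describe the replicates as biological.

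HMG proteins are small, abundant nuclear proteins that bind chromatin without reading a long DNA sequence, and they fall into 3 families. HMGB proteins carry HMG boxes that bend DNA, HMGA proteins carry AT hooks that enter the minor groove of AT-rich DNA, and HMGN proteins bind the nucleosome core and compete with linker histone H1. HMGB1 also acts outside cells as a danger signal. HMGB2 is known to be abundant in dividing cells, HMGA proteins are known as parts of senescence-associated heterochromatin, and HMGA1 and HMGA2 are known to be overexpressed in thyroid carcinoma.

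Expression is given as FPKM (fragments per kilobase of gene length, scaled to the mapped fragments of the library). Fold changes are log2 values of siGDF15 over NC from edgeR's quasi-likelihood test on the deposited expected counts, with TMM scaling and Benjamini-Hochberg adjustment over all 11867 genes, and a gene was called at an adjusted p under 0.05. By this test 9 of the 10 HMG genes were lower in siGDF15 cells and 0 were higher. Over all genes tested, 31.4% were called lower and 30.0% higher. HMGB1 and HMGB2 also passed a log2 fold change of -1, which 4.78% of all genes tested did. HMGB3 and HMGN2 lay at the edge of that threshold and also passed it with scaling to total counts, which gave 4 genes. In FPKM, the 3 siGDF15 libraries all lay below the 3 NC libraries for each of the 10 genes, as was the case for 42.8% of all genes tested. The median log2 fold change was -0.70 over the 10 genes and 0.00 over all genes tested.

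Total counts per library were 67569576 to 68025163 in NC and 51738814 to 67793417 in siGDF15, with siGDF15 replicate 2 the lowest. Mean expected counts of the 10 genes ran from 1210 for HMGN5 to 57800 for HMGA1. GDF15 itself had 22.4, 19.3 and 23.1 FPKM in NC and 10.8, 10.5 and 10.7 FPKM in siGDF15 (log2 fold change -0.92, adjusted p = 2.4e-05). Of the defining thyroid genes, PAX8 had a mean of 59.1 FPKM in NC and 79.4 FPKM in siGDF15, whereas TG, SLC5A5 and NKX2-1 had at most 0.219 FPKM in any library. Summed blood and immune markers had 0.107 to 0.279 FPKM in NC and 0.607 to 0.739 FPKM in siGDF15, with CD14 the main contributor and PTPRC, CD3E and HBB at 0 in most libraries. Summed endothelial markers had at most 0.198 FPKM. Epithelial markers summed to 102 to 149 FPKM in NC and 126 to 136 in siGDF15, and mesenchymal markers to 412 to 460 and 379 to 395 FPKM. KRT18 (78.1 to 109 FPKM over the 6 libraries) and VIM (350 to 425 FPKM) made up most of these sums. EPCAM had at most 2.41 FPKM and CDH1 at most 1.44 FPKM. CDH1 was called higher (log2 fold change 0.61, adjusted p = 0.049), and the other 4 epithelial markers were not called.

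Several HMG genes have near-identical copies, so coding stretches are shown first to make clear which reads could be told apart. The lines below give 90 bases from transcripts of GENCODE release 29 (GRCh38), taken from the first coding base of HMGN2 and from the matching bases of pseudogenes HMGN2P5 and HMGN2P3 and of the paralog HMGN4. Capitals mark bases that differ from HMGN2.
HMGN2: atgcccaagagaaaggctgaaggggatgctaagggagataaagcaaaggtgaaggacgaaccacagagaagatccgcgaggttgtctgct
HMGN2P5: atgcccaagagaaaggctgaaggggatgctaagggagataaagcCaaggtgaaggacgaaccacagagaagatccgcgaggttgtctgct
HMGN2P3: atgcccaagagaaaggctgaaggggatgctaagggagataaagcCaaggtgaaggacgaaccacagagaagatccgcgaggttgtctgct
HMGN4: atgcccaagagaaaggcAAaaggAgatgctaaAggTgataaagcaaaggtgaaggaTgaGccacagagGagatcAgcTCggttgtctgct
The pseudogenes each differed from HMGN2 at 1 of these 90 bases, and HMGN4 differed at 11. The same was done for HMGB1 over coding bases 271 to 360, within the region shared with its pseudogenes HMGB1P6 and HMGB1P5, and capitals mark bases that differ from HMGB1.
HMGB1: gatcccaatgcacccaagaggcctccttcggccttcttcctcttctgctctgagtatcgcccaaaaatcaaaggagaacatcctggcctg
HMGB1P6: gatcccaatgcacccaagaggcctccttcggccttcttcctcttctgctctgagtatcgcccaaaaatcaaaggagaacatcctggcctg
HMGB1P5: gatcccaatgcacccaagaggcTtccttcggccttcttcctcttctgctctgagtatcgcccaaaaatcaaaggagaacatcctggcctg
HMGB2: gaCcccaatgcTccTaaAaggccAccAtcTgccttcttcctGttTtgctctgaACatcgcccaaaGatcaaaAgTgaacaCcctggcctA
HMGB3: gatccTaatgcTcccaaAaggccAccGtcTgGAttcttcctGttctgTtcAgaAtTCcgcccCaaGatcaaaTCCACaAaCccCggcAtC
HMGB1P6 differed at 0 of these 90 bases and HMGB1P5 at 1, while HMGB2 differed at 16 and HMGB3 at 26. Sequencing reads were 150 bases long. The longest run without a mismatch was 230 bases between HMGB1 and HMGB1P6, 189 between HMGB1 and HMGB1P5, 228 between HMGN2 and HMGN2P5 and 152 between HMGN2 and HMGN2P3. In contrast, it was 20 bases between HMGN2 and HMGN4, 29 between HMGB2 and HMGB1 and 17 between HMGB3 and HMGB1, so reads of these protein-coding paralogs are distinct.

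At the protein level, computed from the coding sequences, HMGB1 (215 residues) shared 81.3% of residues with HMGB2 (209 residues) and 76.0% with HMGB3 (200 residues), as a share of the shorter protein. The acidic run at the carboxyl end was 30 residues in HMGB1, 22 in HMGB2 and 20 in HMGB3. HMGA1 (107 residues) and HMGA2 (109 residues) shared 48.6% and each held 3 copies of the Arg-Gly-Arg-Pro core of the AT hook. HMGN2 and HMGN4, of 90 residues each, shared 86.7%. HMGN5 was the longest HMGN protein at 282 residues, of which 36.2% were acidic.

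HMGB1 and HMGB2 were the most strongly lowered pair. HMGB1 (ENSG00000189403, chr13:30456704-30617597, minus strand, GRCh38 as for all positions here) bends DNA in the nucleus and can be released as a danger signal. Its levels were 57.8, 55.7 and 56.5 FPKM in NC and 25.2, 22.7 and 22.5 FPKM in siGDF15. All 3 siGDF15 libraries lay far below all 3 NC libraries, with a mean of 41.5% of the NC mean. The log2 fold change was -1.17 ± 0.0535 (SE, n = 3 per group, adjusted p = 1.0e-06).

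HMGB2 (ENSG00000164104, chr4:173331376-173334432, minus strand) is the HMGB protein of dividing cells and part of the SET complex. It had 81.7, 80.3 and 78.1 FPKM in NC and 25.1, 23.6 and 22.5 FPKM in siGDF15. The groups did not overlap, and the siGDF15 mean was 29.6% of the NC mean. The log2 fold change of -1.65 ± 0.0519 was the lowest of the 10 genes (adjusted p = 4.2e-07), and 1.19% of all genes tested had a lower one.

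HMGB3 (ENSG00000029993, chrX:150980509-150990771, plus strand), known from embryonic and blood progenitor cells, was less abundant. It had 15.0, 14.2 and 13.4 FPKM in NC and 6.58, 6.67 and 6.65 FPKM in siGDF15. The siGDF15 libraries were close to each other and all below NC. The log2 fold change was -0.99 ± 0.0609 (adjusted p = 3.9e-06), just short of -1. Together the 3 HMGB genes summed to 151 ± 3.31 FPKM in NC and 53.8 ± 2.75 FPKM in siGDF15 (mean ± SD, n = 3).

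The HMGA pair differed in both level and change. HMGA1 (ENSG00000137309, chr6:34236873-34246231, plus strand), an architectural factor of enhancers and of heterochromatin, was the most abundant HMG gene. It had 416, 456 and 420 FPKM in NC and 254, 251 and 247 FPKM in siGDF15. No siGDF15 library came near the NC range, and the log2 fold change was -0.68 ± 0.0463 (adjusted p = 7.0e-06). The drop of its mean from 431 to 251 FPKM was the largest in absolute FPKM of the 10 genes.

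HMGA2 (ENSG00000149948, chr12:65824460-65952536, plus strand), an oncofetal protein normally silent in adult tissue, was the 1 HMG gene not called. It had 6.92, 7.79 and 6.54 FPKM in NC and 6.15, 5.67 and 5.76 FPKM in siGDF15. The FPKM groups did not overlap, but the gap between NC replicate 3 and siGDF15 replicate 1 was smaller than the range within NC. The log2 fold change was -0.17 ± 0.0657 with a 95% interval of -0.32 to -0.02 (adjusted p = 0.053). Without NC replicate 3 it was -0.22 and called (adjusted p = 0.0094). With scaling to total counts, the scale FPKM uses, it was -0.27 and called (adjusted p = 0.0086). Without NC replicate 2 it was -0.10 and not called (adjusted p = 0.12). With all libraries set to the same median it was -0.11 and not called (adjusted p = 0.14). HMGA2 was not called under 11 of 18 alternatives.

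All 5 HMGN genes were called lower, over a wide range of sizes. HMGN1 (ENSG00000205581, chr21:39342315-39349647, minus strand) loosens nucleosome packing and competes with linker histones. It had 52.6, 52.5 and 50.0 FPKM in NC and 36.9, 36.5 and 36.2 FPKM in siGDF15. The groups were well apart, and the log2 fold change was -0.40 ± 0.0414 (adjusted p = 6.9e-05).

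HMGN2 (ENSG00000198830, chr1:26472440-26476642, plus strand), the closest relative of HMGN1 in function, was the second most abundant HMG gene. It had 113, 112 and 119 FPKM in NC and 57.1, 53.4 and 50.6 FPKM in siGDF15. The siGDF15 mean was 46.8% of the NC mean, with no overlap. The log2 fold change was -0.99 ± 0.0567 (adjusted p = 2.8e-06), as far from 0 as that of HMGB3.

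HMGN5 (ENSG00000198157, chrX:81113699-81201913, minus strand), which has a long acidic tail, had 8.97, 9.51 and 8.00 FPKM in NC and 5.51, 4.07 and 5.25 FPKM in siGDF15. The groups did not overlap, and the coefficient of variation in siGDF15 (15.5%, with replicate 2 the lowest library) was the highest of the 10 genes. The log2 fold change was -0.73 ± 0.116 (adjusted p = 7.4e-04).

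HMGN3 and HMGN4 changed little. HMGN3 (ENSG00000118418, chr6:79201245-79234689, minus strand), known from endocrine and nervous tissue, had 40.9, 38.1 and 38.5 FPKM in NC and 33.2, 31.6 and 31.3 FPKM in siGDF15. HMGN4 (ENSG00000182952, chr6:26538366-26546933, plus strand), a retroposed copy of HMGN2, had 30.3, 32.9 and 30.3 FPKM in NC and 24.9, 26.2 and 24.8 FPKM in siGDF15. In both genes the 3 siGDF15 libraries were below NC. The log2 fold changes were -0.18 ± 0.0584 for HMGN3 (adjusted p = 0.024) and -0.20 ± 0.056 for HMGN4 (adjusted p = 0.015). These 2 calls were lost when all libraries were set to the same median (adjusted p = 0.083 for HMGN3 and 0.059 for HMGN4). HMGN3 was also not called without NC replicate 1 (adjusted p = 0.095), siGDF15 replicate 2 (0.066) or siGDF15 replicate 3 (0.084), and HMGN4 without siGDF15 replicate 1 (0.058) or siGDF15 replicate 3 (0.066).

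**Figure D1:**
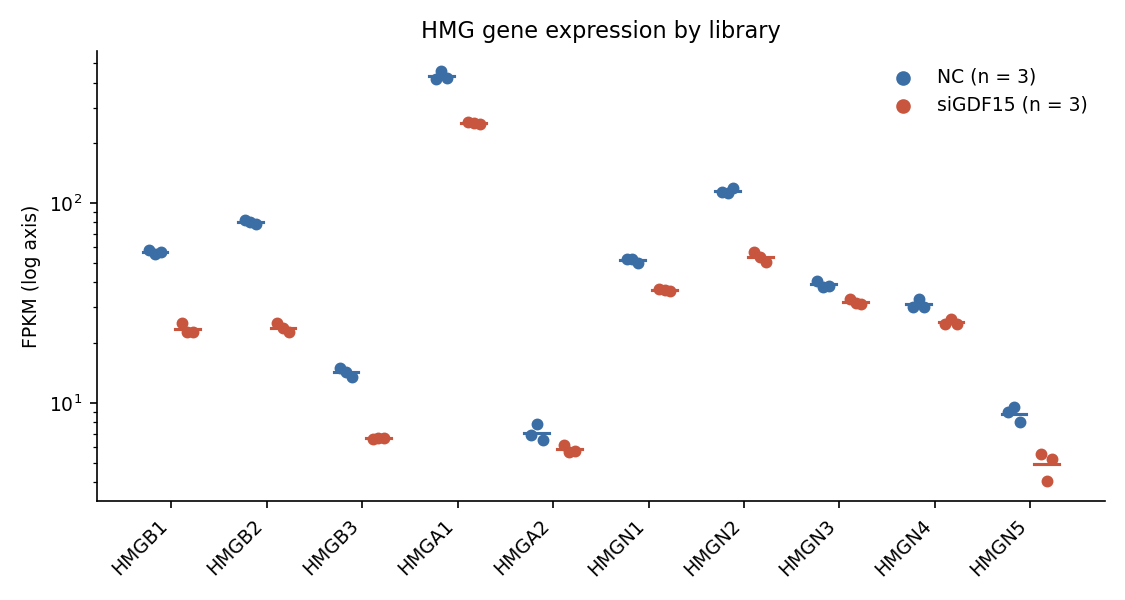
FPKM (log axis) of the 10 HMG genes in the 3 NC and 3 siGDF15 libraries; points are libraries and short lines are group means. The siGDF15 points lie below the NC points for all 10 genes, with the widest gap for HMGB2 (80.0 against 23.7 FPKM) and the narrowest for HMGA2 (7.08 against 5.86 FPKM).

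**Figure D2:**
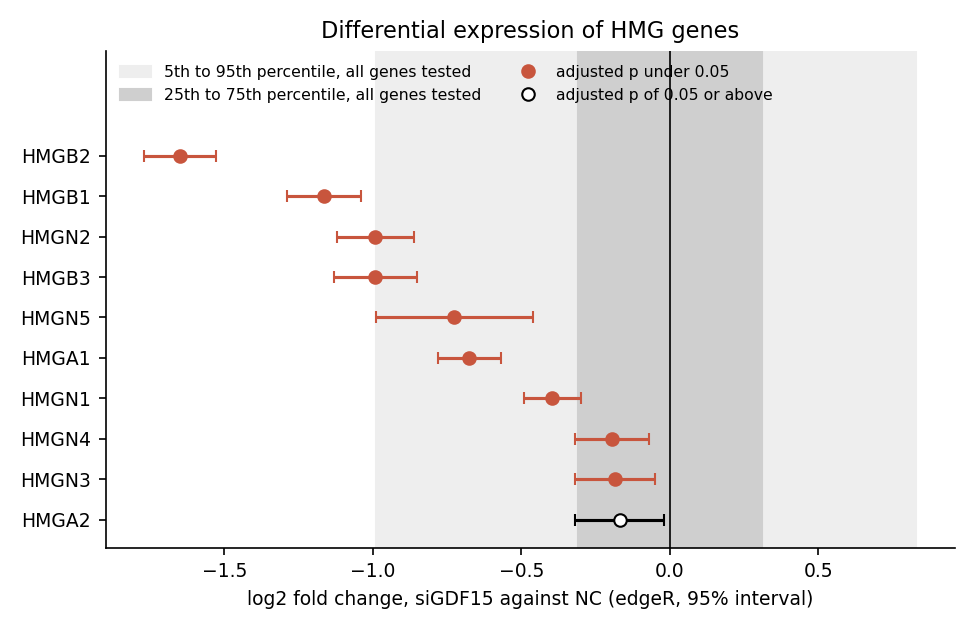
Log2 fold change of each HMG gene, siGDF15 against NC, with a 95% interval derived from edgeR's F statistic. Grey bands show the 5th to 95th and 25th to 75th percentiles of all genes tested. HMGB2 and HMGB1 lie outside the wide band, which starts at -0.99, HMGB3 and HMGN2 at its edge, and HMGN4, HMGN3 and HMGA2 lie inside the narrow band of -0.31 to 0.31.

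The FPKM differences above include a shift of all genes. Scaled to total counts, the median log2 fold change of all genes tested was -0.099. The share of counts from mitochondrial genes was 6.392% to 6.784% in NC and 8.534% to 9.169% in siGDF15, and its part in this shift was not tested. The whole HMG set took 0.277% to 0.287% of all counts in NC and 0.149% to 0.158% in siGDF15. In FPKM it summed to 835 ± 21.8 in NC and 463 ± 10.9 in siGDF15 (mean ± SD, n = 3). The HMGN genes summed to 246 ± 0.312 and 152 ± 4.68 FPKM, and the HMGA genes to 438 ± 22.7 and 257 ± 3.54 FPKM.

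Genes of cell division moved in the same direction. MKI67, the proliferation antigen, had a log2 fold change of -1.74 (42.1, 42.9 and 43.1 FPKM in NC and 12.9, 12.1 and 10.6 in siGDF15). TOP2A, the topoisomerase of dividing cells, was at -1.89, CCNB1, the mitotic cyclin, at -1.46 and CDK1, its kinase, at -1.87, and the highest adjusted p of the 4 was 2.4e-06. Together these 4 genes summed to 247 to 254 FPKM in NC and 66.8 to 79.3 in siGDF15, and their part in the HMG values was not tested. In bulk RNA, fewer cells of a kind and less RNA per cell cannot be told apart.

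The order of the levels changed as well. In NC cells the order from high to low was HMGA1, HMGN2, HMGB2, HMGB1, HMGN1, HMGN3, HMGN4, HMGB3, HMGN5 and HMGA2, and the ranges of neighbours did not overlap at any step. The steps from HMGB1 to HMGN1 and from HMGN5 to HMGA2 were small, the lowest library of the higher gene being at 55.7 against 52.6 FPKM and at 8.00 against 7.79 FPKM. In siGDF15 cells HMGN1, HMGN3 and HMGN4 stood above HMGB2 and HMGB1, and the ranges of HMGN4 (24.8 to 26.2 FPKM) and HMGB2 (22.5 to 25.1 FPKM) and of HMGB2 and HMGB1 (22.5 to 25.2 FPKM) overlapped. This order depends on the gene length behind the FPKM, which exceeded the length of the transcript used for the sequences by 4.04-fold in HMGN1, 3.74-fold in HMGA2 and 2.97-fold in HMGN2. With counts divided by the length of that transcript, a choice made after seeing the data, HMGN1 ranked 3 and HMGA2 ranked 8 in NC, where they ranked 5 and 10 by FPKM, and HMGA1 and HMGN2 still led. By that measure HMGN1 already stood above HMGB2 and HMGB1 in NC (209 against 113 and 87.9), so its move past them was seen only by FPKM. HMGN3 and HMGN4 moved above both genes by either measure. In siGDF15, HMGB1 (36.5) then stood above HMGB2 (33.5). Fold changes of a gene do not depend on the length used.

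Paralog balance was compared as the FPKM ratio of 2 genes inside the same library, which is free of scaling between libraries. Of 8 pairs, all 8 had ratios that did not overlap between groups. How often pairs of other genes do so was not counted, so this is not read as particular to HMG genes. The exact permutation test (two-sided) gave p = 0.1 for each pair, the smallest p that 3 against 3 libraries allow, with an adjusted p of 0.1. None of the 8 ratio differences can therefore pass 0.05. HMGB2/HMGB1 was 1.41, 1.44 and 1.38 in NC and 0.994, 1.04 and 1.00 in siGDF15, a log2 difference of -0.48 ± 0.0262 (SE), with the siGDF15 ratios all close to 1. HMGB2/HMGB3 was 5.45, 5.67 and 5.81 in NC and 3.81, 3.54 and 3.38 in siGDF15, a difference of -0.66 ± 0.0578. HMGB3/HMGB1 differed little, with 0.260, 0.255 and 0.238 in NC and 0.261, 0.293 and 0.296 in siGDF15.

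Ratios of the HMGA and HMGN pairs restate, library by library, the differences between the fold changes given above. HMGA2/HMGA1 was 0.0166, 0.0171 and 0.0156 in NC and 0.0242, 0.0226 and 0.0233 in siGDF15, a log2 difference of 0.51 ± 0.049. HMGN4/HMGN2 was 0.269, 0.293 and 0.254 in NC and 0.435, 0.490 and 0.491 in siGDF15, which was the largest difference of the 8 pairs (0.80 ± 0.0824). HMGN2/HMGN1 was 2.15, 2.14 and 2.38 in NC and 1.55, 1.46 and 1.40 in siGDF15, a difference of -0.60 ± 0.0668. HMGN3/HMGN1 differed by 0.21 ± 0.036 and HMGN5/HMGN1 by -0.34 ± 0.143, the latter -0.21 without siGDF15 replicate 2.

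**Figure D3:**
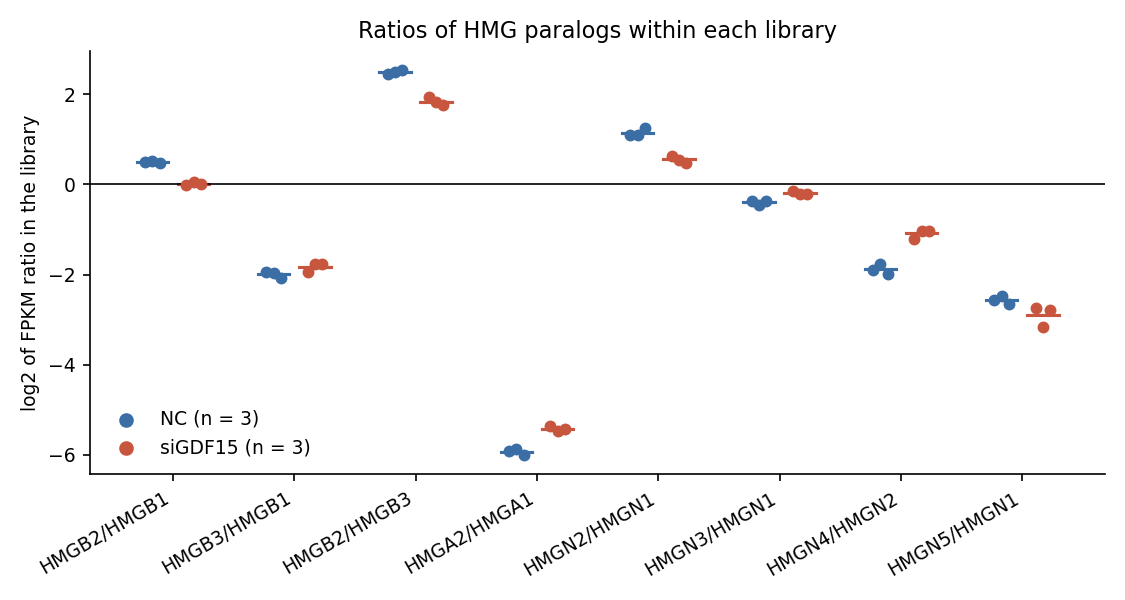
Log2 of the FPKM ratio of 8 pairs of HMG paralogs in each library; points are libraries, short lines are group means and the line at 0 marks equal FPKM. HMGB2/HMGB1 has a mean of 0.50 in NC and 0.02 in siGDF15, and HMGN4/HMGN2 has -1.88 and -1.08.

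Pseudogenes of HMG genes were taken by name (gene symbol, P and digits), without a check of their type. They were listed 62 times in the table, and 7 of them reached a mean of 1 FPKM and were tested. Of these, 5 were called lower and 0 higher, beside 31.4% and 30.0% of all genes tested. The 5 are all copies of HMGB1 or HMGN2 and are not read as separate observations. The transcripts of HMGB1P6, HMGB1P5, HMGN2P5 and HMGN2P3 share runs longer than a read with their gene, as given above, so such reads could be exchanged and these values are uncertain. The longest shared run was shorter than a read for HMGB1P10 (98 bases), HMGN1P38 (99 bases) and HMGN1P36 (71 bases), which were 97.0% to 98.3% identical to their gene. HMGB1P6 (chr15:71164770-71165415) had 79.8, 73.8 and 72.9 FPKM in NC and 34.7, 31.9 and 32.7 FPKM in siGDF15, a log2 fold change of -1.09 (adjusted p = 2.9e-06). HMGB1P5 (chr3:22381720-22382929) was at -1.20 and HMGB1P10 (chr22:26560526-26561088) at -1.22, beside -1.17 for HMGB1. HMGN2P5 (chr15:29730713-29730985) was at -0.94 and HMGN2P3 (chr16:26032539-26032811) at -0.73, beside -0.99 for HMGN2. HMGN1P38 and HMGN1P36 had log2 fold changes of -0.16 and -0.32 with adjusted p of 0.41 and 0.28.

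Pseudogenes held 23.3% to 25.1% of all counts of HMGB1 and its pseudogenes in the 6 libraries, and the NC range of 23.3% to 24.8% overlapped the siGDF15 range of 23.6% to 25.1%. For HMGN2 the share was 2.70% to 3.56% and for HMGN1 1.08% to 1.29%. For HMGB2, HMGB3 and HMGA1 it was at most 1.61%, with HMGB2P1, HMGB3P24 and HMGA1P8 the most abundant copies at 0.189, 0.204 and 0.936 FPKM over all libraries, and the table held no such pseudogene of HMGA2, HMGN3, HMGN4 or HMGN5. With pseudogene counts added to their gene, the log2 fold change of HMGB1 was -1.16 and 9 HMG genes were called lower.

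**Figure D4:**
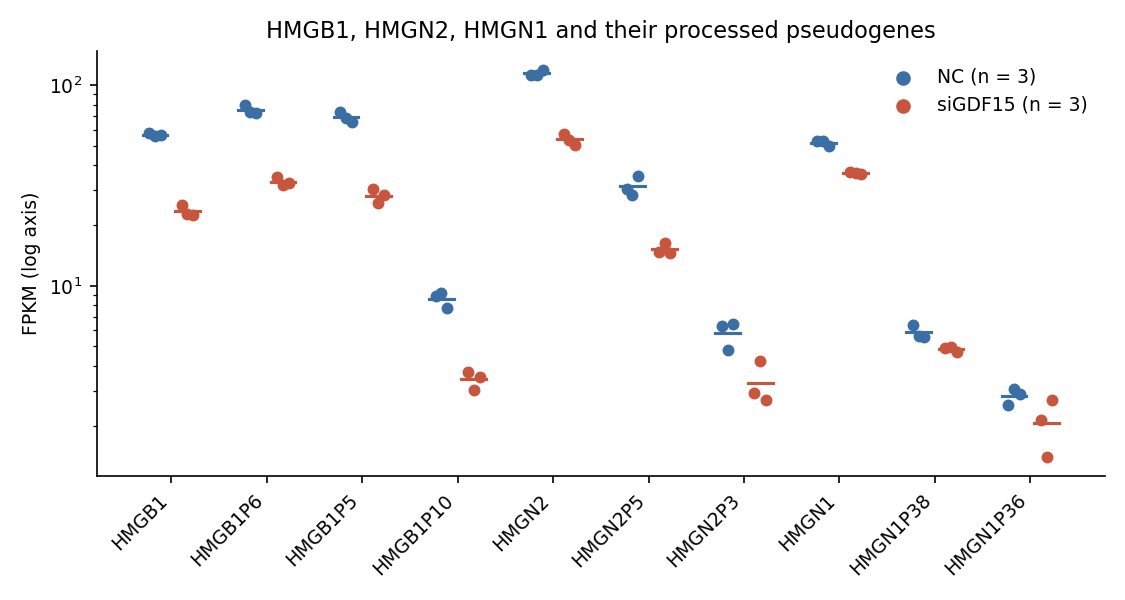
FPKM (log axis) of HMGB1, HMGN2 and HMGN1 and of their 7 tested pseudogenes in each library, with group means as short lines. HMGB1P6 (75.5 FPKM in NC and 33.1 in siGDF15) and HMGB1P5 (69.5 and 28.2) are lower in siGDF15, as is HMGB1 (56.6 and 23.5), and levels between genes depend on the length behind the FPKM, while the groups of HMGN1P36 overlap.

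Other genes overlap the HMG genes. The libraries were strand-marked by dUTP according to the labels, but whether counting used the strand is not given in the sources used here. MIR6835 lies inside HMGA1 on the same strand (chr6:34240673-34240736), so its reads cannot be told apart from those of HMGA1. It had expected counts of 18, 38 and 21 in NC and of 10, 7 and 10 in siGDF15, below the floor of 12 counts (3 read pairs) in siGDF15, and no direction is read from it. RPSAP52 runs antisense across the start of HMGA2 and had 0.996, 1.14 and 1.03 FPKM in NC and 1.10, 1.05 and 1.38 FPKM in siGDF15, with no call (adjusted p = 0.21). HMGA2-AS1 and HMGN3-AS1 had at most 0.392 FPKM in any library and were not tested.

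Promoter sequence was examined because most members moved together. RefSeq promoters (GRCh38.p14) were at hand for 8 of the 10 genes, all but HMGB2 and HMGA2, with 12 sequences in all, and the 250 bases before the start site were searched on both strands. The stretches below end at the base before a start site and run along the strand of the gene. Capitals mark CCAAT, the letters of the CCAAT box.
HMGB1, chr13:30465937-30466056 (- strand): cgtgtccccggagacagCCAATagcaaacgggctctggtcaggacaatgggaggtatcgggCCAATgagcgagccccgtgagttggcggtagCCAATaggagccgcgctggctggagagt
HMGB3, chrX:150983185-150983334 (+ strand): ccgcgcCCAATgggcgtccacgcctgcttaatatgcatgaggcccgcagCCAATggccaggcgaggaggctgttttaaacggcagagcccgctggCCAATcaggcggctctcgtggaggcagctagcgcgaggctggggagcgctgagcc
HMGN2, chr1:26472320-26472439 (+ strand): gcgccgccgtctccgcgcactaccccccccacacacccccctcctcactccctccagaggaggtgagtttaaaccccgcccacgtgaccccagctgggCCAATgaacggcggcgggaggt
HMGN4, chr6:26538246-26538365 (+ strand): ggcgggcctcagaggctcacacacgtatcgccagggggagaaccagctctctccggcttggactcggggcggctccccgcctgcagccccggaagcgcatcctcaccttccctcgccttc
These 4 stretches were chosen to show promoters with 3 CCAAT copies (HMGB1 and HMGB3), 1 copy (HMGN2) and 0 copies (HMGN4). A relation between the number of copies and the size of the change was not tested. The log2 fold changes of these genes were -1.17 for HMGB1, -0.99 for HMGB3 and HMGN2, and -0.20 for HMGN4. HMGN1 and HMGN3, with log2 fold changes of -0.40 and -0.18, held 2 copies each, and HMGN5, at -0.73, held 0. HMGA1, at -0.68, held 0 and 1 copies at its start sites. Other start sites of HMGB1 held 1 and 0 copies, and that of HMGB3 held 0. In all, 7 of the 12 sequences, from 6 of the 8 genes, held CCAAT, beside 32.0% of 35116 promoters of the same length. For the cell cycle homology region only the letters TTTGAA were searched, and other forms were not. TTTGAA was present in 2 of the 12 sequences, 1 of HMGB1 and 1 of HMGB3, beside 13.3% of all promoters. The match began 246 bases before the start site in HMGB1 and 172 bases before it in HMGB3. TATAAA (10.7% of all promoters) and the E2F type letters TTTCCCGC, TTTGGCGC and TTTCGCGC (2.32%) were found in 0 of the 12. No match overlapped another. These matches are letters in a window, and no binding was measured.

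HMGA2 is the classic target of the let-7 microRNAs, which silence it in differentiated cells. The RefSeq sequence of let-7a-5p is shown with its seed (bases 2 to 8) in capitals, followed by the seed matches in the 3′UTRs of HMG transcripts of GENCODE release 29, with CTACCTC in capitals.
hsa-let-7a-5p: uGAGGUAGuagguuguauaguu
HMGA1, 3′UTR bases 960 to 966: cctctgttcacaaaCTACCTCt
HMGA2, 3′UTR bases 21 to 27: ccaacgttcgatttCTACCTCa
HMGA2, 3′UTR bases 1256 to 1262: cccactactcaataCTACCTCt
HMGA2, 3′UTR bases 1668 to 1674: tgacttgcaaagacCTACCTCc
HMGA2, 3′UTR bases 2521 to 2527: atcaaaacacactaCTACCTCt
Counted as CTACCTC in the transcript used for each gene, the 3′UTR of HMGA2 held 4 matches, that of HMGA1 held 1, and the other 8 genes held 0. Other types of let-7 site were not searched. The microRNA itself was not measured by this poly(A) library. Of 10 genes around let-7 and HMGA2, 7 were tested, 2 were called lower and 2 higher, with a median log2 fold change of 0.12. Of all genes tested, 31.4% were called lower and 30.0% higher, so these counts are not read as a trait of the list. DICER1, which cuts microRNA precursors, was lower (-0.31, adjusted p = 0.0051), as was IGF2BP3, an mRNA-binding protein that protects HMGA2 mRNA (-0.33, adjusted p = 0.020). TUT7, a uridylyl transferase of let-7 precursors, was higher (0.35, adjusted p = 0.017), as was DIS3L2, the exonuclease that degrades them (0.22, adjusted p = 0.025). LIN28A and LIN28B, the let-7 repressors, had at most 0.174 FPKM.

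Other proteins with HMG boxes did not move as a block. Of 22 listed chromatin proteins (HMG box proteins, and SUPT16H as the partner of SSRP1), 18 were tested, 8 were called lower and 5 higher, and the median log2 fold change was -0.06. The shares over all genes tested were 31.4% lower and 30.0% higher. NSD2, a histone H3 lysine methyltransferase, had 13.3, 13.6 and 14.4 FPKM in NC and 5.85, 5.12 and 5.12 FPKM in siGDF15 (-1.26, adjusted p = 1.5e-06). WDHD1, a replication fork protein, was at -1.61 (adjusted p = 3.2e-06). SSRP1 and SUPT16H, the subunits of the histone chaperone FACT, were at -0.83 (adjusted p = 2.6e-06) and -0.79 (adjusted p = 8.0e-06). TFAM, which packs mitochondrial DNA with HMG boxes, was lower (-0.61, adjusted p = 3.4e-05), while HBP1, a repressor of cell cycle genes, was higher (0.93, adjusted p = 2.4e-04).

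Of 22 HMG box transcription factors, 11 were tested, 4 were lower and 3 higher, with a median log2 fold change of -0.13. Among all genes tested, 31.4% were lower and 30.0% higher. LEF1, a partner of beta-catenin, had 3.49, 3.67 and 3.74 FPKM in NC and 1.17, 1.21 and 1.43 FPKM in siGDF15 (-1.40, adjusted p = 8.1e-06). SOX7 and SOX18, both SOXF factors, were lower (-1.20, adjusted p = 3.7e-05, and -0.99, adjusted p = 3.3e-04). TCF7L1, another TCF/LEF member, was higher (0.71, adjusted p = 9.7e-05).

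Linker histones, with which HMGN and HMGA proteins compete for chromatin, differed in direction. Among the 3 tested, 1 was called higher and 1 lower, beside 30.0% and 31.4% of all genes tested. H1-2 had 9.91, 10.3 and 11.4 FPKM in NC and 51.9, 52.8 and 63.3 FPKM in siGDF15, a log2 fold change of 2.52 ± 0.0987 (adjusted p = 6.5e-07). Most H1-2 transcripts lack a poly(A) tail in dividing cells, so a poly(A) library measures only the tailed ones. H1-10, a replacement linker histone with polyadenylated transcripts, was lower (39.8 against 20.3 FPKM, -0.87, adjusted p = 2.6e-05). H1-3, H1-4, H1-5, H1-6 and H1-7 had at most 0.319 FPKM and were not tested.

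The SET complex holds HMGB2 together with nucleases and histone-binding proteins. Of its 5 listed partners, 4 were tested, 3 were lower and 0 higher, with a median log2 fold change of -0.39. The shares over all genes tested were 31.4% and 30.0%. ANP32A was at -0.54 (adjusted p = 1.6e-05), SET, an inhibitor of histone acetylation, at -0.45 (adjusted p = 3.0e-04) and NME1 at -0.33 (adjusted p = 0.020). APEX1, the base excision repair endonuclease, was at 0.02 (adjusted p = 0.72). All of these differences were smaller in size than that of HMGB2.

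Receptors and partners of extracellular HMGB1 split in direction. Of 13 listed, 5 were tested, 3 were lower and 2 higher, with a median log2 fold change of -0.81. Among all genes tested, 31.4% were lower and 30.0% higher. SDC1, a heparan sulfate proteoglycan, had 69.4, 75.8 and 71.6 FPKM in NC and 37.2, 34.7 and 35.0 FPKM in siGDF15 (-0.92, adjusted p = 2.0e-06). CD24, which dampens responses to HMGB1, was higher (36.8, 39.9 and 26.8 against 113, 110 and 108 FPKM, 1.78, adjusted p = 8.2e-06), as was LRP1 (0.89, adjusted p = 5.8e-05). AGER, the receptor RAGE, was close to the filter of 1 FPKM and lower (1.97 against 1.03 FPKM, -0.81, adjusted p = 0.0022). TLR4 and TLR2 had at most 1.19 and 0.304 FPKM and were not tested, and CXCR4 and CXCL12 had at most 0.0842 FPKM.

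**Figure D5:**
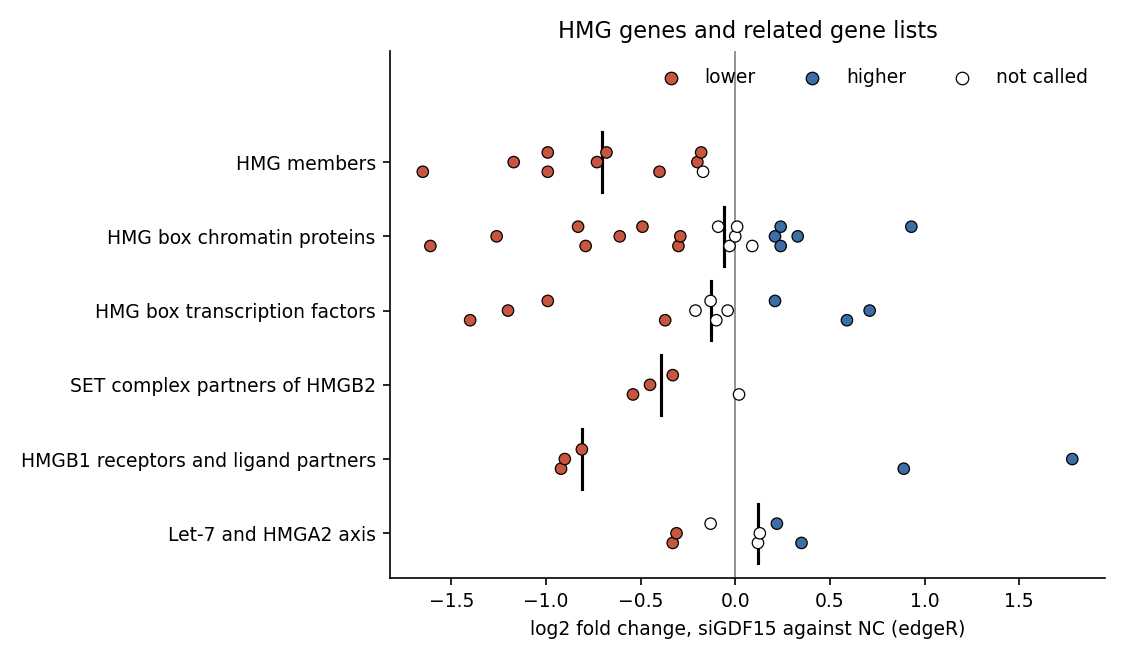
Log2 fold change, siGDF15 against NC, of each tested HMG gene and of the tested genes of 5 related lists; red is called lower, blue called higher, white not called, and black bars are medians. The HMG genes all lie below 0 with a median of -0.70, while HMG box chromatin proteins and transcription factors lie on both sides of 0.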

How the data were processed

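Poly(A) RNA of 6 libraries was sequenced as read pairs of 150 bases. Per the labels, the authors used fastp, HISAT2, StringTie and edgeR on GRCh38, with versions not given in the sources used here. The authors deposited FPKM values and expected counts per gene in 1 table, and all of its per-library columns were used. Counts from 1 to 20 were exactly 4 in 15.6% of cases, so 1 read pair was taken as 4 counts, and counting error is that of the pairs. Groups came from the sample titles. No libraries agreed within sampling noise.

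Expected counts were rounded and tested with edgeR 4.0.16 (quasi-likelihood, TMM, R 4.3.3) for genes averaging 1 FPKM or more over the 6 libraries. A gene was called at an adjusted p under 0.05. The fit was tested only on simulated data with less variation between replicates and fewer changed genes than here. That test therefore gives no error rate for these data. Alternatives included DESeq2 1.42.0 and limma 3.58.1 on log2(FPKM + 1). Paralog ratios were tested by an exact permutation test with SciPy 1.17.1. Sequences were aligned with Biopython 1.88.

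The members and lists were chosen with earlier results of these data known. All 10 HMG genes are named, with up to 4 called genes of each list by adjusted p (TFAM and HBP1 were added after their values were seen), genes near 0 that define a list, overlapping genes, pseudogenes passing that filter or most abundant for their gene, GDF15 and 4 proliferation genes. A few items of the lists are not reported here.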

Additional observations from a re-analysis of the deposited data

How the results depend on the processing

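All 10 log2 fold changes stayed below 0 under every alternative run (18 per gene, 17 for HMGN4), and HMGB1, HMGB2, HMGB3, HMGA1, HMGN1, HMGN2 and HMGN5 were called lower under each of them. The number of HMG genes called lower was 2 with a further threshold of a log2 fold change of -1, and, in a count added after seeing the data, 4 (HMGB3 and HMGN2 besides) with that threshold under scaling to total counts, a filter of 0.1 FPKM, no filter or limma on log2(FPKM + 0.1), and 2 to 3 with 1 replicate left out. With 1 replicate left out it was 7 to 10. The adjusted p of HMGN3 ran from 0.0014 to 0.095, of HMGN4 from 0.0016 to 0.066 and of HMGA2 from 0.0086 to 0.15. HMGA2 was called under 7 of 18 alternatives, among them DESeq2 (adjusted p = 0.042), limma on log2(FPKM + 1) (0.018) and no filter on low values (0.045). The cause was not tested.

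Over all genes, no filter on low values called 11.7% of genes lower and a filter of 0.1 FPKM 22.1%. Higher genes made up 48.9% of all calls, 36.6% with scaling to total counts and 55.8% with the same median. With the replicate number as a block (replicate block) 9 HMG genes were lower and no call of an HMG gene changed. Same-numbered libraries did not deviate together (correlations of 0.04, -0.114 and 0.032), so the numbers were not read as pairs.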
